A study of Mus musculus with 8 samples.

Results

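The genes described here, *Tap1*, *Tap2*, *Tapbp*, *Psmb8*, *Psmb9*, *Psmb10*, *H2-K1*, *H2-D1*, *B2m* and *Nlrc5*, serve antigen presentation by major histocompatibility complex (MHC) class I molecules, and they were 10 of the 19751 named genes with a probe on the array. They were chosen by their place in the pathway with the log2 difference between *L3mbtl2* knockdown (KD) and control samples on these same arrays already known, so they count as selected on that difference. Their values are therefore given as a description, and where limma's result over the whole array is quoted for them, it describes and supports nothing.

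Embryonic stem cells (ESCs) of the VV3 line were transfected with siRNA against *L3mbtl2* or with the AllStars control siRNA, which silences no gene, and 4 biological replicates of each group were hybridized to single-colour Agilent whole mouse genome arrays. L3MBTL2 is a component of PCGF6-PRC1, a Polycomb complex known for silencing germ cell genes in ESCs, and the comparison asks which transcripts differ when *L3mbtl2* is depleted. Both groups were male, carried the *Vasa*::Venus transgene, a fluorescent reporter of the germ cell gene *Ddx4*, and were cultured with serum and leukemia inhibitory factor on STO fibroblast feeders that had been inactivated by mitomycin C. The methods describe the L3mbtl2-KD cells as Vasa-positive cells isolated by sorting and do not state how the control cells for the arrays were sorted, so selection for the reporter and depletion of *L3mbtl2* cannot be told apart.

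Each value below is the log2 intensity of a probe minus the log2 of the 75th percentile of its array, so 0 marks that percentile, and a log2 fold change is the L3mbtl2-KD mean minus the control mean. The 75th percentile lay between 791 and 1038 intensity units over the 8 arrays, and between 59.5% and 66.6% of spots were well above background. A probe was tested when it was well above background on all 4 arrays of at least 1 group. A gene passed when at least 1 of its probes had an adjusted p under 0.05 in limma, and it was called when that probe also differed by more than 2-fold. The arrays lay on 2 slides, each scanned once with 2 control and 2 L3mbtl2-KD arrays. Differences within each slide are given for the tested genes of the class I set, most other lists and some other genes. Control and L3mbtl2-KD arrays never shared a position on a slide, so position and group cannot be told apart. The number of arrays limits the precision.

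*L3mbtl2*, the siRNA target, was 0.27, -0.18, -0.21 and -0.31 in control replicates 1 to 4 and -1.45, -1.26, -1.58 and -1.73 in L3mbtl2-KD replicates 1 to 4. Every L3mbtl2-KD array was below every control array. The transcript fell, with a log2 fold change of -1.40 (SE 0.15, adjusted p = 0.000944, lower in 4 of 4 pairs of replicates with the same number), and by -1.40 within each of the 2 slides. *Ddx4*, the gene that the reporter follows, rose from 0.92 ± 0.08 (SD, n = 4) to 3.75 ± 0.11 (SD, n = 4).

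The cell types that the samples could hold were read from marker lists. All 12 pluripotency markers were tested, and their summed level, in multiples of the 75th percentile, was 329, 336, 323 and 319 in the controls and 323, 344, 310 and 334 in the L3mbtl2-KD samples, with the probe of *Dppa5a* the brightest. Such sums follow the brightest probes, which do not share a scale, and the list's median log2 fold change was -0.20, with -0.24 and -0.14 within slides. *Klf4* fell by 0.70 (SE 0.18, adjusted p = 0.0274, 4 of 4 pairs, passed under 12 of 17 alternatives) and *Dppa4* rose by 0.31 (SE 0.08, adjusted p = 0.0295, 4 of 4 pairs, 9 of 17 alternatives). The largest difference of the list, -1.32 for *Nanog* (SE 0.49, adjusted p = 0.0962, lower in 3 of 4 pairs), did not pass. With the replicate block 2 pluripotency markers passed higher and 4 lower. Of the 18 fibroblast markers, which the feeders would carry, 15 were tested, 11 passed lower, 7 of them called, and 1, *Loxl1*, was called higher, with a log2 fold change of 1.01 (SE 0.11, adjusted p = 0.000967, 4 of 4 pairs) and the call lost under 3 of 17 alternatives. Their summed level was 145, 171, 156 and 161 in the controls and 102, 123, 104 and 93.8 in the L3mbtl2-KD samples, and the gene with the brightest probe, *Sparc*, fell from 6.48 to 6.08 and passed under 8 of 17 alternatives. *Dcn* and *Col3a1*, matrix genes that define fibroblasts, were above background on 4 control arrays and on 0 L3mbtl2-KD arrays, where *Dcn* was at least 12.1-fold lower and *Col3a1* at least 7.81-fold lower, taking as floor the lowest value well above background on each array. These 2 genes and *Thbs1*, above background on 1 L3mbtl2-KD array, were tested through the controls alone, and 4 lower markers were called when all 8 arrays had to be above background. The list's median log2 fold change was -1.57, and it was -1.26 within slide 1, -1.73 within slide 2 and -0.88 after normexp background correction. Of 13 leukocyte markers with a probe, 6 were below background on all 8 arrays, *Ptprc* among them, and the brightest probe was 1 of 3 for *Itgam*, at 2.47 in the controls while the other 2 were at -4.85 and -4.98. Of the 13 markers, 5 were tested and 1, *Ncam1*, passed and was called, a log2 fold change of -1.63 (SE 0.21, adjusted p = 0.00199, 4 of 4 pairs). Their summed level was 8.54, 9.85, 10.4 and 11.5 in the controls and 8.07, 9.19, 8.56 and 8.47 in the L3mbtl2-KD samples. As blocked pairs, 1 fibroblast marker passed higher and 12 lower, and 0 leukocyte markers higher and 2 lower. These are bulk samples, in which fewer feeder cells, the sorting described for the L3mbtl2-KD cells and less of a transcript per cell cannot be told apart, and the part of the feeders in the class I values was not tested.

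MHC class I molecules display peptides from the inside of a cell to cytotoxic T cells. Proteasomes cut the peptides, a transporter carries them into the endoplasmic reticulum, and a loading complex places them on a heavy chain paired with beta-2-microglobulin. ESCs are known for low class I display, and interferon-gamma is known to raise most genes of the pathway in many cell types.

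All 10 genes had a probe, 12 probes in total, and 9 genes were tested, each above background on all 8 arrays. Log2 fold changes lay between -0.73 and 0.60 with a median of 0.10 (-0.11 and 0.30 within slides, which differ in sign), and 5 genes had a higher and 4 a lower mean in the L3mbtl2-KD samples. In 3 genes, *Tap1*, *Psmb9* and *Tapbp*, the groups did not overlap, as held, for the brightest probe, in 13.8% of all genes tested with lower and 12.7% with higher L3mbtl2-KD values, and the same 3 met the adjusted p of limma, 2 lower and 1 higher, *Tap1* under 7 of 17 alternatives and the other 2 under all 17. Across the array 11.7% of the 13652 genes tested passed lower and 10.3% passed higher, and nothing is read from the members' count. None of the 10 was called (0 higher and 0 lower in limma, 0 also at an unadjusted p under 0.05 with more than 2-fold), beside 2.49% of all genes called higher and 3.21% called lower. Of those array-wide calls 43.7% were higher, a share that was 55.2% after normexp background correction. When replicates with the same number were fitted as blocks, 6 members met the adjusted p, 3 lower (also *Tap2*) and 3 higher (also *Psmb10* and *H2-K1*), beside 26.0% and 23.9% of all genes. The direction of each of the 9 mean differences was the same under quantile normalization and normexp background correction.

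**Figure D1:**
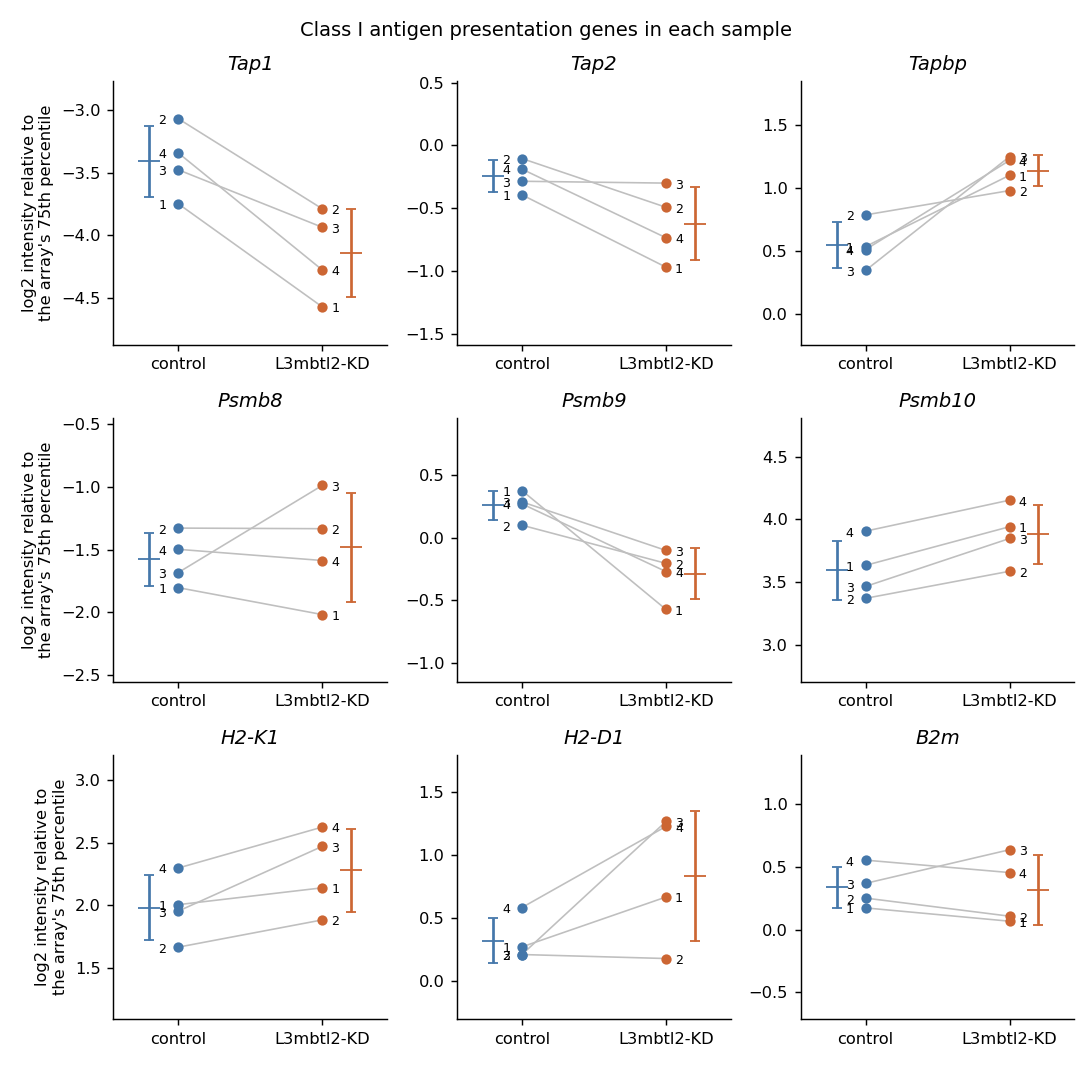
Log2 intensity relative to the array's 75th percentile (y axis) of the 9 tested class I genes in control and L3mbtl2-KD samples (x axis), with points for the 4 replicates of each group, grey lines joining equal replicate numbers, and bars for the mean and SD. *Tap1* and *Psmb9* lie lower and *Tapbp* higher in every L3mbtl2-KD sample than in any control, while the groups of the other 6 genes overlap.

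The peptide transporter TAP is a dimer of the TAP1 and TAP2 proteins. *Tap1* (RefSeq NM_013683, a probe printed as 10 spots) was -3.75, -3.07, -3.48 and -3.34 in control replicates 1 to 4 and -4.57, -3.79, -3.94 and -4.28 in L3mbtl2-KD replicates 1 to 4. The 4 L3mbtl2-KD samples lay below the 4 controls, and replicate 1 was the lowest and replicate 2 the highest of each group. The mean went from -3.41 ± 0.28 (SD, n = 4) to -4.14 ± 0.35 (SD, n = 4), a log2 fold change of -0.73 (SE 0.20) or 1.66-fold lower. Within slides the difference was -0.77 and -0.70. *Tap1* was a dim probe, and its log2 fold change was -0.28 after normexp background correction, which adds a constant before the logarithm and so shrinks differences of dim probes.

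*Tap2* (NM_011530) was -0.39, -0.10, -0.29 and -0.19 in the controls and -0.97, -0.49, -0.30 and -0.74 in the L3mbtl2-KD samples. All 4 pairs were lower, but L3mbtl2-KD replicate 3 lay level with its control and inside the control range, so the groups overlapped. Its log2 fold change was -0.38 (SE 0.15), with -0.48 and -0.28 within slides. Tapasin, the product of *Tapbp*, bridges the transporter and the empty heavy chain. *Tapbp* (NM_001025313) was 0.53, 0.79, 0.34 and 0.51 in the controls and 1.10, 0.98, 1.25 and 1.22 in the L3mbtl2-KD samples. Here the 4 L3mbtl2-KD samples lay above the 4 controls, the narrowest gap being between control replicate 2 and L3mbtl2-KD replicate 2. The mean went from 0.54 ± 0.18 (SD, n = 4) to 1.14 ± 0.12 (SD, n = 4), a log2 fold change of 0.60 (SE 0.11) or 1.51-fold higher, with 0.38 and 0.81 within slides.

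The promoters of *Tap1* and *Tapbp* are shown because these genes had non-overlapping groups in opposite directions. They come from the RefSeq promoter table of build GRCm38.p6, which matched 8 of the 10 members (not *Tap2* and *Nlrc5*), and run from 250 bases before to 50 bases after the start. *Tap1* is at chr17:34187306-34187605 on the + strand and *Tapbp* at chr17:33919228-33919527 on the + strand. Capitals mark matches on either strand to any of 6 motifs: the E-box CACGTG, the E2F-like TCCCGC, the CCAAT box, the cAMP-response core TGACG, the STAT-like TTCNNNGAA, and an interferon element of GAAA, any 2 bases and GAAA. These 6 were in 7.15%, 20%, 37.4%, 20.8%, 8.3% and 3.44% of the 32851 promoters in the table, in that order.
Tap1: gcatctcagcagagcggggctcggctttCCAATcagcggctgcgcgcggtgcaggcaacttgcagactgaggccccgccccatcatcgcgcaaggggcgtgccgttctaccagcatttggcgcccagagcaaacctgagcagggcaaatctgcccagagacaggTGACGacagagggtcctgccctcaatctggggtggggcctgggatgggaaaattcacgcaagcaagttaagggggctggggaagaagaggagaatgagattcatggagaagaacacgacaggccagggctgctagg
Tapbp: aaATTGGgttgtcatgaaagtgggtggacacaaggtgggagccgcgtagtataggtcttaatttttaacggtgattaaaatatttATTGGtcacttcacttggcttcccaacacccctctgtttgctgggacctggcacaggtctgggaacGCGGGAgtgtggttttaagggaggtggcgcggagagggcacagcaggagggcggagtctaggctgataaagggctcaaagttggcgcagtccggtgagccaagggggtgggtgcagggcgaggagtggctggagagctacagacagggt

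The *Tap1* window held CCAAT at -222 and TGACG at -86 from the start. *Tapbp* had neither CACGTG nor TGACG, with CCAAT on the other strand at -248 and -165 and TCCCGC on the other strand at -99. A match is a description of letters, and binding was not measured. *Psmb9* starts 225 bases from *Tap1* on the opposite strand, so that the 2 windows share 275 of their 300 bases and hold the same TGACG and CCAAT. This pair were the genes with lower and non-overlapping values in the L3mbtl2-KD samples.

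Immunoproteasomes carry the catalytic subunits encoded by *Psmb8*, *Psmb9* and *Psmb10* in place of those of *Psmb5*, *Psmb6* and *Psmb7*, and cut peptides that suit class I binding. *Psmb9* (NM_013585) was 0.37, 0.10, 0.28 and 0.27 in the controls and -0.57, -0.21, -0.10 and -0.27 in the L3mbtl2-KD samples. The groups did not overlap, and replicate 1 was both the highest control and the lowest L3mbtl2-KD sample. The mean went from 0.26 ± 0.12 (SD, n = 4) to -0.29 ± 0.20 (SD, n = 4), a log2 fold change of -0.54 (SE 0.12) or 1.46-fold lower, with -0.63 and -0.46 within slides.

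*Psmb8* (NM_010724) was -1.80, -1.33, -1.68 and -1.50 in the controls and -2.02, -1.33, -0.99 and -1.59 in the L3mbtl2-KD samples. L3mbtl2-KD replicate 3 was the highest of the 8 and L3mbtl2-KD replicate 1 the lowest, so the control range lay inside that of the L3mbtl2-KD samples. For *Psmb8* the log2 fold change was 0.10 (SE 0.21), with -0.11 and 0.30 within slides, which differ in sign. *Psmb10* (NM_013640) was 3.63, 3.37, 3.47 and 3.91 in the controls and 3.94, 3.59, 3.85 and 4.15 in the L3mbtl2-KD samples. Each L3mbtl2-KD sample was above the control of the same number, by 0.22 to 0.38, though the groups overlapped. The log2 fold change was 0.29 (SE 0.15), with 0.26 and 0.31 within slides.

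The constitutive partners gave log2 fold changes of 0.12 for *Psmb5* (SE 0.09, adjusted p = 0.423, higher in 4 of 4 pairs), 0.04 for *Psmb6* (SE 0.09, adjusted p = 0.787, higher in 3 of 4 pairs) and 0.02 for *Psmb7* (SE 0.10, adjusted p = 0.927, higher in 1 of 4 pairs, and below 0 under both other scalings). None of the 3 passed, and whether a partner differed from its immunoproteasome counterpart was not tested.

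**Figure D2:**
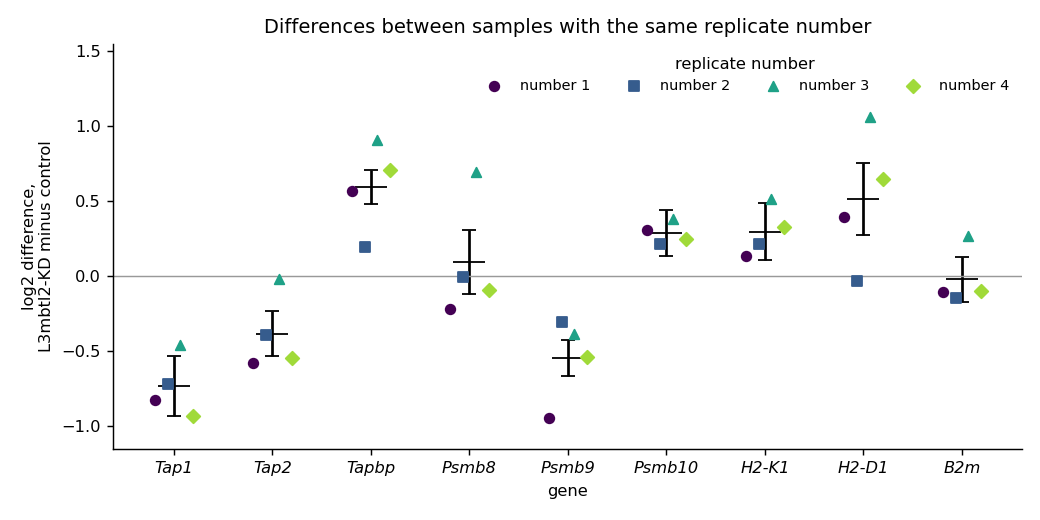
Log2 difference between the L3mbtl2-KD and the control sample with the same replicate number (y axis) for the 9 tested class I genes (x axis), with 1 symbol per replicate number and bars for the log2 fold change and its SE. All 4 differences share a sign in 6 genes, *Tap1*, *Tap2*, *Psmb9*, *Tapbp*, *Psmb10* and *H2-K1*, and replicate number 3 gives the highest difference in 8 of the 9 genes, *Psmb9* being the exception.

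Classical heavy chains bind the peptide, and beta-2-microglobulin is the light chain that holds their fold. *H2-K1* (NM_001001892, a probe printed as 10 spots) was 2.01, 1.67, 1.95 and 2.30 in the controls and 2.14, 1.88, 2.47 and 2.62 in the L3mbtl2-KD samples. Each L3mbtl2-KD sample exceeded its control, by 0.13 to 0.52, and L3mbtl2-KD replicates 3 and 4 were the highest of the 8, while the groups overlapped. The log2 fold change was 0.30 (SE 0.19), with 0.18 and 0.42 within slides. A second probe gave 0.37 (SE 0.22), with 0.21 and 0.53 within slides.

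*H2-D1* (NM_010380) was 0.27, 0.21, 0.21 and 0.58 in the controls and 0.67, 0.18, 1.27 and 1.23 in the L3mbtl2-KD samples. L3mbtl2-KD replicates 1, 3 and 4 stood above all controls, L3mbtl2-KD replicate 2 was the lowest of the 8, and the groups overlapped. The log2 fold change was 0.52 (SE 0.24), with 0.18 and 0.85 within slides. Without 1 array it lay between 0.37 and 0.74, the latter without L3mbtl2-KD replicate 2. *B2m* (NM_009735) was 0.17, 0.25, 0.37 and 0.55 in the controls and 0.07, 0.11, 0.64 and 0.45 in the L3mbtl2-KD samples. The groups overlapped over most of their range, L3mbtl2-KD replicate 3 being the 1 sample above its control. Its log2 fold change was -0.02 (SE 0.15), with -0.13 and 0.08 within slides. Probes for class I heavy chains may detect near-identical gene copies, and the files hold no probe sequences with which to check this.

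The promoters of these 3 genes are shown because they share a spaced pair of motifs, looked for after the sequences had been seen. *H2-K1* is at chr17:34000284-34000583 on the - strand, *H2-D1* at chr17:35262844-35263143 on the + strand and *B2m* at chr2:122147437-122147736 on the + strand, each from the same table and with the same 6 motifs in capitals.
H2-K1: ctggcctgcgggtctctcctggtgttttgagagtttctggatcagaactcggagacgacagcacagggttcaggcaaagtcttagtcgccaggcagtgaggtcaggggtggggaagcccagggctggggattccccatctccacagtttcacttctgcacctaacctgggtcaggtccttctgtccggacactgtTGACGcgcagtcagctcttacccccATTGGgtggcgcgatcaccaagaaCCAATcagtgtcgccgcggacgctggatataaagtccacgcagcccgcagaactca
H2-D1: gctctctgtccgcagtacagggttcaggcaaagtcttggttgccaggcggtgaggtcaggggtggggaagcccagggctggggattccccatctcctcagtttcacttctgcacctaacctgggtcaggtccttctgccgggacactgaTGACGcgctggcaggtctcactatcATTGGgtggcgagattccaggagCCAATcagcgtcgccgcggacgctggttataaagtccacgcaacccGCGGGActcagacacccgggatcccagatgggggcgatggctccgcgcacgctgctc
B2m: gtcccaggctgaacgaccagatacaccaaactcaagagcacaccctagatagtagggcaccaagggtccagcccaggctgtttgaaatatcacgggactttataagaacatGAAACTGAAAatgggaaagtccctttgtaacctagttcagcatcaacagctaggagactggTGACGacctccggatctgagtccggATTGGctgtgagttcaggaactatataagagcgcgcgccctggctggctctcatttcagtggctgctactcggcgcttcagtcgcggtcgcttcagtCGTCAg

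In each of the 3, TGACG was followed after 20 bases by ATTGG, which is CCAAT on the other strand. TGACG lay at -55 in *H2-K1*, -101 in *H2-D1* and -78 in *B2m*. The table has a second start for *H2-K1*, from which TGACG lay at -41. This spaced pair was in 31 of the 32851 promoters (0.0944%), from 27 genes, and among those of 16 other class I heavy chain genes it was in 1, that of *H2-M3*, and among 8 class II presentation genes in 0. The *H2-K1* and *H2-D1* windows, aligned without gaps, were 70.9% identical over 254 bases, and 73.3% over 240 bases from the second start. *B2m* also carried the interferon element, GAAACTGAAA, at -139. Over the 8 members with a promoter, CCAAT was in 6, TGACG in 5, TCCCGC in 2, and CACGTG, TTCNNNGAA and the interferon element in 1 each. The CCAAT and TGACG that *Psmb9* and *Tap1* share are counted for both genes, so these counts are not of independent sequences. The 3 genes with the spaced pair had log2 fold changes of 0.30, 0.52 and -0.02, and a difference between them was not tested.

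*Nlrc5* (NM_001033207) encodes the transactivator that is known to drive class I genes through these promoter elements. Its 2 probes were above background on 1 control and 1 L3mbtl2-KD array, and on 0 arrays, and it was not tested. The first ranged from -6.38 to -4.93 in the controls and from -6.39 to -5.25 in the L3mbtl2-KD samples, values at the level of background, so a difference was not detectable on these arrays.

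The members' profiles over the arrays differed. By the root mean square difference between profiles centred on their own means over the 8 arrays, the closest pairs were *H2-K1* with *Psmb10* (0.125), *Tap2* with *Psmb9* (0.181) and *H2-K1* with *H2-D1* (0.189), and the farthest was *Tap1* with *H2-D1* (0.781). *Tap1* and *Psmb9*, which share promoter sequence, were 0.286 apart, and *Psmb8* and *Psmb9* were 0.404 apart. The 5 other genes closest to the members' mean profile, of 13599 compared, were *Ryk* (0.0497), *Ndst2* (0.0563), *Ints8* (0.0563), *Abi2* (0.0654) and *Gm5069* (0.0666), none of which passed, with log2 fold changes between -0.04 and 0.05. The genes closest to single members were looked up after the values were seen. For *Tap1* the closest was *Aph1b* (0.0681), for *Psmb9* *Syngr4* (0.0816), for *Tapbp* *Habp4* (0.0853) and for *H2-K1* *Ppp1r1b* (0.0767). The fifth for *H2-K1* was another heavy chain gene, *H2-Q6* (0.0845).

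Other class I heavy chains were described from a list of 24 genes, of which 20 had a probe and 16 were tested. None passed higher, 3 passed lower and 1 was called lower, and the list's median log2 fold change was 0.09, with 0.09 and 0.00 within slides, beside -0.01 over all genes tested. *H2-T3*, a non-classical heavy chain, was -3.92, -3.89, -5.00 and -3.32 in the controls and -5.44, -5.07, -6.11 and -4.85 in the L3mbtl2-KD samples. Control replicate 3 lay within the L3mbtl2-KD range, and 2 L3mbtl2-KD arrays were above background, so the gene was tested through the controls alone, and with no filter it did not pass. Its log2 fold change was -1.34 (SE 0.38, adjusted p = 0.0425, lower in 4 of 4 pairs), with -1.35 and -1.32 within slides, and the call was lost under 11 of 16 alternatives, with -0.33 after normexp background correction. The L3mbtl2-KD values were partly at background, so this value is not exact. The list's call, which rests on this gene, is not read as a fall. *H2-T10* fell by 0.98 (SE 0.23, adjusted p = 0.0206, 4 of 4 pairs, no overlap), with -1.24 and -0.72 within slides, and passed under 12 of 17 alternatives. *Cd1d1*, which presents lipids, passed by the dimmer of 2 probes (log2 fold change -0.32, adjusted p = 0.0378, 4 of 4 pairs), while its brighter probe gave -0.29 (adjusted p = 0.235).

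Several heavy chains of the Q and T regions had values like those of *H2-K1* and *H2-D1* without passing. *H2-T23* was 0.78, 0.40, 0.67 and 1.13 in the controls and 1.13, 0.78, 1.54 and 1.65 in the L3mbtl2-KD samples, a log2 fold change of 0.53 (adjusted p = 0.132, higher in 4 of 4 pairs). *H2-Q7* gave 0.45 (adjusted p = 0.18), *H2-Q2* 0.39 (adjusted p = 0.137), *H2-Q6* 0.38 (adjusted p = 0.132) and *H2-Bl* 0.38 (adjusted p = 0.107), each higher in 4 of 4 pairs. In these 5 genes L3mbtl2-KD replicates 3 and 4 were the 2 highest of the 8 arrays. With the replicate block 6 genes of the list passed higher, these 5 and *H2-Q8* (log2 fold change 0.22), and 4 passed lower. *H2-Q4*, the brightest tested gene of the list, gave -0.21 (adjusted p = 0.253, lower in 4 of 4 pairs).

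**Figure D3:**
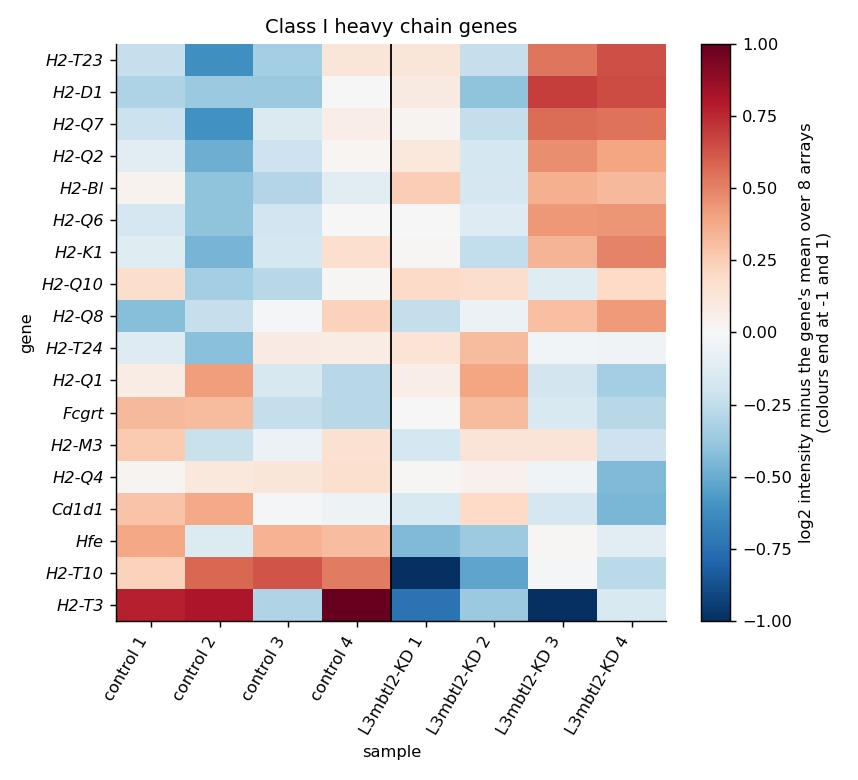
Log2 intensity minus each gene's mean over the 8 arrays (colour, ending at -1 and 1) for 18 class I heavy chain genes (y axis) in the control and L3mbtl2-KD samples (x axis, divided by the line). *H2-T10* and *H2-T3* have lower means in L3mbtl2-KD samples, with log2 fold changes of -0.98 and -1.34, the groups of *H2-T3* overlapping. L3mbtl2-KD replicates 3 and 4 are the highest for *H2-T23*, *H2-D1*, *H2-Q7*, *H2-Q2*, *H2-Bl*, *H2-Q6*, *H2-Q8* and *H2-K1*.

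Of the 10 loading partners and chaperones of the endoplasmic reticulum, all 10 were tested and 0 passed in limma. Their median log2 fold change was 0.04, with -0.04 and 0.04 within slides and -0.01 under quantile normalization. *Hsp90b1*, a chaperone, gave -0.28 (SE 0.15, adjusted p = 0.222, lower in 4 of 4 pairs) and *P4hb*, a disulfide isomerase, 0.31 (SE 0.13, adjusted p = 0.123, higher in 4 of 4 pairs). *Tapbpl*, the tapasin-related peptide editor, gave 0.12 (SE 0.21), while the log2 fold change of *Tapbp* was 0.60. Of the 9 peptidases that trim peptides, 8 were tested and 0 passed, with a median of -0.05 (0.01 and -0.13 within slides), and *Lap3* gave -0.31 (SE 0.12, adjusted p = 0.109, lower in 4 of 4 pairs). *Erap1*, which trims peptides in the endoplasmic reticulum, was above background on 1 control array and 0 L3mbtl2-KD arrays and was not tested. Under the replicate block, 1 loading partner passed higher and 2 lower, and 1 peptidase passed higher and 3 lower.

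All 14 subunits of the constitutive proteasome core were tested and had log2 fold changes above 0, between 0.02 and 0.29 with a median of 0.11, except that *Psmb7* was -0.04 under quantile normalization and -0.01 under normexp background correction, and that 2 subunits were below 0 without L3mbtl2-KD replicate 4 and 4 without control replicate 2. The median was 0.10 within each slide. *Psmb2* rose by 0.29 (SE 0.08, adjusted p = 0.0442, 4 of 4 pairs, no overlap) and passed under 8 of 17 alternatives, and the other 13 did not pass. Of the 10 proteasome activators and assembly factors, all 10 were tested and 0 passed, and the list's median was 0.22, with 0.15 and 0.26 within slides. *Psme1* and *Psme2*, the subunits of the activator that interferon-gamma is known to raise, gave -0.11 (SE 0.12) and 0.19 (SE 0.11), and *Psmg1*, an assembly chaperone, 0.27 (SE 0.10, adjusted p = 0.0914, higher in 4 of 4 pairs). As blocked pairs, 3 core subunits and 5 activators and assembly factors passed higher, and 0 passed lower in either list.

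Of 17 regulators of class I promoters, 13 were tested, 0 passed higher and 1 passed lower, with a median of 0.04 (-0.01 and 0.20 within slides). *Nfyb*, a subunit of the factor that binds CCAAT, passed by 1 of its 3 probes (log2 fold change -0.35, SE 0.08, adjusted p = 0.0187, 4 of 4 pairs), and its brightest probe gave -0.21 (adjusted p = 0.298). *Irf1*, an interferon-induced activator, gave 0.24 (adjusted p = 0.208) and *Irf8* -0.53 (adjusted p = 0.0726, lower in 4 of 4 pairs). *Usf2*, which binds E-boxes and is the brightest of the list, gave -0.10 (adjusted p = 0.565). *Rfx5*, *Irf2* and *Ciita* were not above background on every array of either group. A replicate block gave 1 regulator that passed higher and 3 lower.

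Of the 10 class II presentation genes listed, which but for *Cd74* lie near *Tap1* and *Psmb9* in the MHC, 5 were tested, 3 passed lower and 0 higher. The other 5 were too dim to be tested. *H2-Aa*, *H2-Eb2* and *H2-DMb2* were above background on 0 arrays, and *H2-DMb1* and *H2-Ob* on only part of them. *H2-Eb1*, a class II beta chain, was 1.23, 0.89, 1.04 and 0.50 in the controls and -0.13, 0.13, 0.08 and -0.49 in the L3mbtl2-KD samples. All 4 L3mbtl2-KD samples lay below the 4 controls, and replicate 4 was the lowest of each group. *H2-Eb1* fell by 1.02 (SE 0.19, adjusted p = 0.00843, 4 of 4 pairs), with -1.06 and -0.98 within slides, and was called, a call lost under 4 of 17 alternatives, with -0.93 after normexp background correction and -0.89 without L3mbtl2-KD replicate 4. *H2-Oa* and *H2-DMa*, chains of the molecules that regulate and catalyse class II loading, fell by 0.72 (SE 0.10, adjusted p = 0.00238, 4 of 4 pairs) and 0.63 (SE 0.12, adjusted p = 0.00886, 4 of 4 pairs), also with no overlap. After normexp background correction their log2 fold changes were -0.47 and -0.44. *H2-Ab1* gave -0.34 (adjusted p = 0.449, and 0.0495 with the replicate block, lower in 4 of 4 pairs, -0.52 to -0.08 without 1 array) and *Cd74*, the invariant chain, -0.10 (adjusted p = 0.548). The *Cd74* probe was dim, at -2.98 in the controls. The median of the 5 tested genes was -0.63, with -0.63 within each slide and -0.44 after normexp background correction, and it does not cover the list's dim genes. The 3 genes that fell passed under each of 17 alternatives, 4 genes passed lower and 0 higher with the replicate block, and the part that feeder cells had in their levels was not tested.

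Chromosome 17 holds 7 of the 10 members. From *Tapbp* to *H2-Eb2*, a stretch chosen after the values were seen, RefSeq lists 38 genes, of which 22 were tested, 5 passed lower and 5 passed higher by their brightest probe. By that probe 1472 of the 13652 genes tested on the array passed lower and 1277 higher. The stretch includes *Tapbp*, *Psmb9* and *Tap1*, which count as selected, and nothing is read from its counts. The lower ones were *H2-Oa*, *H2-DMa*, *Psmb9*, *Tap1* and *H2-Eb1*, at the class II end, and the higher ones *Tapbp*, *Rgl2* (0.40), *Pfdn6* (0.39) and *Wdr46* (0.45) at the other end and *Brd2* (0.73), a bromodomain protein gene that stands between *H2-Oa* and *H2-DMa*. *Psmb8*, between *Tap1* and *Tap2*, gave 0.10, whereas those 2 genes gave -0.73 and -0.38. Over the genes up to 5 places from each member, 69 in all, 33 were tested, 9 passed higher and 4 lower, 3 of the 13 by a probe other than the brightest, and the median log2 fold change was 0.12, with 0.14 within each slide. These were 27.3% and 12.1% of the neighbours tested, beside 10.3% higher and 11.7% lower for all genes, given with no test. Of these neighbours 17 passed higher and 6 lower with the replicate block, beside 23.9% higher and 26.0% lower for all genes. *Dpep3*, a dipeptidase gene 4 places from *Psmb10*, rose by 2.82 (SE 0.19, adjusted p = 0.000143, 4 of 4 pairs) and was above background on 2 control and 4 L3mbtl2-KD arrays, so that it was tested through the latter alone, though it also passed with no filter, with 1.41 after normexp background correction. *Cpne2*, 3 places from *Nlrc5*, was called lower by the dimmer of its probes (log2 fold change -1.08, SE 0.19, adjusted p = 0.00645, 4 of 4 pairs). Its brighter probe also passed, at -0.42 (adjusted p = 0.0264, 4 of 4 pairs), under 10 of 17 alternatives.

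Interferon signalling is the best known input to the class I genes. Of 14 receptor and JAK-STAT genes 11 were tested, 1 passed higher and 2 lower, with a median of -0.02 (-0.06 and -0.01 within slides). *Ifnar2*, a chain of the type I interferon receptor, fell by 0.43 (SE 0.13, adjusted p = 0.0475, 4 of 4 pairs) and passed under 8 of 17 alternatives. *Ifnar1* and *Ptpn2* passed by a dim probe, at 0.45 (adjusted p = 0.0104) and -0.68 (adjusted p = 0.0178), while their brightest probes gave 0.12 (adjusted p = 0.498) and -0.10 (adjusted p = 0.522). The interferon genes *Ifng* and *Ifnb1* were above background on 0 arrays. In this list 4 genes passed higher and 3 lower with the replicate block.

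Of 19 interferon response genes 16 were tested, 2 passed higher, both called, and 0 lower, and the median log2 fold change was 0.04, with -0.07 and 0.20 within slides. *Isg15*, a ubiquitin-like modifier, was -0.08, -0.69, -0.85 and -0.69 in the controls and 0.71, -0.19, 1.42 and 0.35 in the L3mbtl2-KD samples. L3mbtl2-KD replicate 3 was the highest, and L3mbtl2-KD replicate 2 lay below control replicate 1, so the groups overlapped. *Isg15* rose by 1.15 (SE 0.32, adjusted p = 0.0409, 4 of 4 pairs), with 0.64 and 1.66 within slides, and passed under 9 of 17 alternatives. *Cd274*, which encodes the checkpoint ligand PD-L1, had a log2 fold change of 1.68 (SE 0.42, adjusted p = 0.0276, higher in 4 of 4 pairs), with 1.21 and 2.16 within slides. Its controls were partly at background, so this value is not exact and its call is not read as a rise. Its groups overlapped, it was above background on 2 control and 4 L3mbtl2-KD arrays and so tested through the L3mbtl2-KD group alone, it did not pass with no filter, and it passed under 9 of 16 alternatives and was called under 8, with 0.61 after normexp background correction. The guanylate-binding protein gene *Gbp6* gave -0.74 (adjusted p = 0.0525, lower in 4 of 4 pairs), *Xaf1* -0.71 (adjusted p = 0.0954, lower in 4 of 4 pairs), *Usp18* 0.92 (adjusted p = 0.312, higher in 4 of 4 pairs) and *Oas1a* 0.69 (adjusted p = 0.21, higher in 4 of 4 pairs), and *Bst2*, the brightest of the list, 0.17 (adjusted p = 0.506). L3mbtl2-KD replicate 3 was the highest L3mbtl2-KD sample for *Isg15*, *Cd274*, *Usp18*, *Oas1a* and *Bst2*, and also for *Psmb8*, *H2-D1*, *B2m*, *Tap2*, *Psmb9* and *Tapbp*. For *Tap1* it was replicate 2, and for *H2-K1* and *Psmb10* replicate 4. Those response genes were picked out of the 16 tested with the values seen, and a shared pattern was not tested. With the replicate block 3 response genes passed higher and 2 lower.

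**Figure D4:**
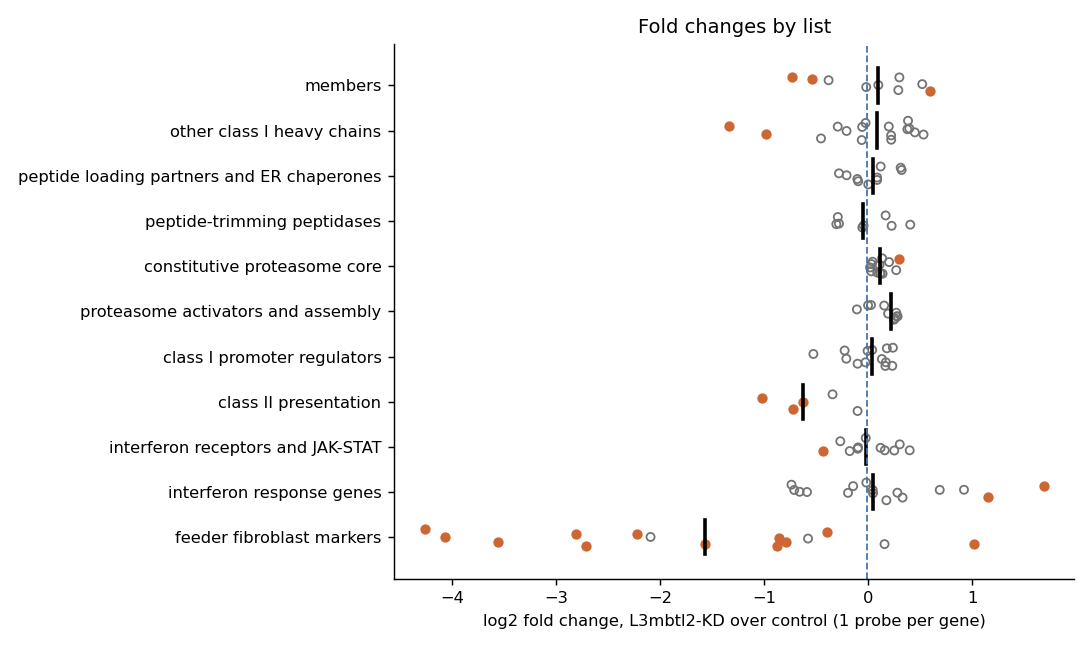
Log2 fold change of L3mbtl2-KD over control (x axis) for the class I genes and the other lists (y axis), with 1 point per tested gene from its brightest probe, filled where the adjusted p was under 0.05, a black bar for the list's median and a dashed line for the median of all genes tested. The medians of class II genes, -0.63, and of fibroblast markers, -1.57, lie left of the line, with 2 fibroblast markers right of it. The class I genes spread from -0.73 to 0.60.

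Over the 126 genes of the other pathway lists, 122 had a probe and 103 were tested, of which 4 passed higher and 9 lower and 2 were called in each direction. The called genes included *Cd274* and *H2-T3*, each tested through 1 group alone. The share that passed, set against 10.3% higher and 11.7% lower for all genes, is given as a count with no test. With the replicate block 24 passed higher and 21 lower, beside 23.9% higher and 26.0% lower for all genes. The called genes were again 2 in each direction.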

How the data were processed

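RNA of 4 control and 4 L3mbtl2-KD samples was measured on 8 single-colour arrays. The authors' scanner software gave each spot's intensity, background-subtracted and spatially detrended, with no scaling between arrays. The authors also deposited a log2 table, shifted by the 75th percentile in GeneSpring; it matched the values recomputed here after median centring per probe (lowest r = 0.999944 over 39242 probes). Here the log2 intensity minus that of the array's 75th percentile was used. Spots of 1 probe were averaged, and RefSeq accessions gave 1 symbol to 26055 of 39429 probes (0 several, 13374 none), for 19751 genes.

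Groups follow the siRNA labels. Probes that stood well above background on all arrays of 1 or both groups (23518 probes, 13652 genes) were fitted with limma 3.58.1 in R 4.3.3 (lmFit, eBayes), with Benjamini-Hochberg adjustment over all of them. Passed means an adjusted p under 0.05 in at least 1 probe, called means also more than 2-fold, and a gene's value is that of its brightest tested probe. Positive values are higher in L3mbtl2-KD samples. Python 3.11.15 with pandas 2.3.3 and numpy 2.4.6 made the counts, and the code was tested on simulated data.

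The labels do not state a pairing of replicates, so it was looked for in the values. After each group's mean was removed, control and L3mbtl2-KD replicates with the same number correlated across probes at 0.377 to 0.582, and those with different numbers at -0.437 to 0.247. Probes are not independent replicates. Removing a group's mean ties the deviations of its arrays together, so positive same-number correlations push the others down. Replicates with the same number also lay side by side on the same slide, so pairing and place on the slide cannot be told apart. A fit with replicate number as block is therefore given beside the results.

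The members and lists were chosen with earlier results of these data known. Named genes were all members, *L3mbtl2*, *Ddx4*, *Psmb5*, *Psmb6* and *Psmb7*. For each list they were up to 5 called genes per direction, then genes that passed, then the brightest. Called neighbours and the 5 nearest profiles were added. Genes named beyond this were chosen after their values were seen. Alternatives were normexp correction (offset 50), quantile normalization, the authors' table, no filter, a filter over all 8 arrays, slide and replicate blocks, an intensity trend, the one-way test of the methods, the brightest probe alone, and leaving out each array. A planned comparison of protein sequences was not run, and no protein table was used here. Of the genes in the described lists, 1 was counted in them and is not reported here.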

Additional observations from a re-analysis of the deposited data

Results flagged for a closer look

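Among 106 groups of 4 samples, covering the members and the named genes in each condition, a sample was picked out when its distance to the nearest other sample took up an unusually large share of the group's range. Chance alone picks out about 1 in 20 such groups, or 5.3 of 106, and 3 were found.

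*H2-D1* in control replicate 4 was 0.58, while the other controls lay between 0.21 and 0.27, so the gap was 0.837 of the range. The log2 fold change was 0.52 with this sample and 0.61 without it. *H2-Q4*, another class I heavy chain, was 4.20 in L3mbtl2-KD replicate 4 and between 4.60 and 4.68 in the other L3mbtl2-KD samples, a gap of 0.842 of the range, and its log2 fold change went from -0.21 to -0.10 without that sample. *Psmb5*, a constitutive proteasome subunit, was 6.58 in L3mbtl2-KD replicate 4 and between 6.42 and 6.44 in the others, a gap of 0.881 of the range, and its log2 fold change went from 0.12 to 0.08. Why these samples stood apart was not tested.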

How the results depend on the processing

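The count of called members was 0 in each direction under all 18 alternatives. *Tapbp* passed higher and *Psmb9* passed lower under each of the alternatives run, with log2 fold changes of 0.53 to 0.68 and -0.61 to -0.45 without 1 array. *Tap1* did not, and members that passed lower were 1 instead of 2 with no filter, normexp correction, quantile normalization and the one-way test. The same held without L3mbtl2-KD replicate 1, 3 or 4 or control replicate 2, 3 or 4. Without 1 array its log2 fold change lay between -0.85 and -0.59. In leave-one-out fits *B2m* changed sign in 3 (-0.13 to 0.06) and *Psmb8* in 1 (-0.07 to 0.28), and *H2-K1* lay between 0.18 and 0.43.

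With replicate number as block, members that passed rose to 3 higher and 3 lower, array-wide genes that passed to 3261 higher and 3547 lower, and those of the other pathway lists to 24 higher and 21 lower. The block also brought 7 named genes past the adjusted p and moved no other of these counts by over 1.5 times. With slide as block 13 pathway genes passed higher.

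With no filter, which tests more dim probes, 819 genes passed higher and 1047 lower on the array, and of the pathway lists 1 passed higher and 4 lower, with 0 called higher and 1 lower. Normexp correction gave 195 and 158 array-wide calls, and 1 higher and 0 lower in the pathway lists. The one-way test called 0 pathway genes higher and 1 lower, and quantile normalization called 1 lower. With probes above background on all arrays, a filter that removes probes dim in either group, 290 genes were called lower on the array, 1 pathway gene in each direction and 4 fibroblast markers. Why the counts changed under these settings was not tested.

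Leaving out 1 array gave 1 to 2 members that passed higher (2 without L3mbtl2-KD replicate 2, which added *H2-D1*) and 1 to 2 lower. Array-wide calls were 296 to 371 higher and 355 to 500 lower, and genes that passed 773 to 1397 and 1015 to 1593. In the pathway lists 0 to 2 were called higher, 1 to 3 lower, 1 to 5 passed higher and 4 to 9 lower, and called fibroblast markers were 7 to 8. Array-wide genes that passed fell most without control replicate 3 (773 and 1015), and by over 1.5 times without L3mbtl2-KD replicate 4 (858 and 1066) and, for the higher ones, L3mbtl2-KD replicate 3 (921). Pathway genes that passed higher were 1 without L3mbtl2-KD replicate 1 or 3 or control replicate 3 or 4, and 2 without L3mbtl2-KD replicate 4 or control replicate 2. Those that passed lower were 4 without L3mbtl2-KD replicate 4 and 5 without control replicate 3. Pathway genes called higher were 0 without L3mbtl2-KD replicate 1 or 3 or control replicate 3 or 4, and 1 without L3mbtl2-KD replicate 2 or 4 or control replicate 2. Those called lower were 1 without each array but L3mbtl2-KD replicate 3 (3 without that one). Fewer arrays enter each such fit.

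Of 44 named genes outside the members, 23 passed by their brightest probe, 13 of them under every alternative, and 7 of the others passed under at least 1 alternative. None that passed, with or without an alternative, changed sign. Among genes whose brightest probe did not pass, fits without 1 array gave 0.03 to 0.27 for *Bst2* and -0.40 to -0.18 for *Hsp90b1*. They gave -0.16 to -0.03 for *Usf2* and -0.30 to -0.13 for *Nfyb*. Signal over background limits *Nlrc5* and other genes that were not tested, and the dim probes of *Tap1*, *H2-T3*, *Cd274* and *Dpep3*.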
